A study of Bos taurus with 46 samples.

Results

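The genes described here are the NF-kappaB subunits NFKB1, NFKB2, REL, RELA and RELB and the inhibitors and modulators NFKBIA, NFKBIB, NFKBIE, BCL3 and TNFAIP3. They were taken by name as members of this family, and 10 of 10 were found among the 30675 genes of the RefSeq count table. The rule itself uses no measured value, but the list was chosen with earlier results of these data known. All 10 passed the filter on low counts, as did 16487 genes in all.

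Leukocytes (white blood cells) of 23 pregnant Angus crossbred heifers were sequenced on D55 and again on D105 of gestation, which gave 46 libraries with 1 library per heifer and day. In the AI group (n = 8) the pregnancies came from artificial insemination. The IVP heifers had received a pair of blastocysts produced in vitro from Bos taurus taurus oocytes and semen of a single Bos taurus indicus sire, cultured with serum of cows in estrus. They were split by fetal weight on D105 into IVP-Normal (n = 6, named ARTnormal in the labels) and IVP-LOS (n = 9, named ARTLOS). LOS is large offspring syndrome, a fetal overgrowth of ruminants best known after assisted reproduction, and the study set its lower limit at a high percentile of the AI fetal weights. All heifers were in the second year of life at breeding and had their estrus synchronized by the same hormones, GnRH included, and were assigned to insemination or transfer at random. Oocyte source, embryo culture and embryo transfer differed together between the AI and IVP groups, and their parts in a difference cannot be told apart. Some IVP heifers carried 2 fetuses and the AI heifers 1. A supplementary legend of the study places D55 samples in winter and D105 samples in summer, while its discussion names autumn, spring and summer. Estrus was synchronized in 2 rounds, and the round and season of each library were not used here. Day of gestation and season therefore cannot be told apart here either.

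NF-kappaB proteins are dimeric transcription factors that wait in the cytoplasm of resting leukocytes, held by inhibitor proteins of the IkappaB family. When receptors for microbial products, IL-1 or TNF are engaged, a kinase complex marks the inhibitor for destruction and the dimer enters the nucleus. Among the genes it switches on are its own brakes, NFKBIA and TNFAIP3, so that their transcripts are widely used as readouts of recent NF-kappaB activity in white blood cells. A second, slower branch driven by CD40 and related receptors of B cells works through NFKB2 and RELB.

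The libraries held 18692653 to 24502012 reads on genes. Levels below are CPM, counts scaled to a common library total, with TMM, a factor per library that evens out differences in composition. They are compared only within a gene because they are not corrected for gene length. The labels name 2 library sets, BACKUP (AI and IVP-LOS on D105) and New (every D55 library and IVP-Normal on D105), so that day follows set in AI and IVP-LOS but not in IVP-Normal. The defining markers of T cells, B cells and monocytes were detected in every group, with summed levels of 795.1 to 1909 CPM for 8 T cell markers, 1281 to 5230 CPM for 7 B cell markers and 104.1 to 2140 CPM for 6 monocyte markers. The summed level of 10 neutrophil markers ranged from 311.6 to 12860 CPM. Its highest value was that of the D105 library of heifer 637 (IVP-LOS), and its lowest 2 values on D105 were those of heifers 604 and 664, the dams of the 2 largest IVP-LOS fetuses. Where leaving out these heifers changes a result below, the value without them is given.

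RELA encodes p65, the main transactivating subunit of the classical NF-kappaB dimer. On D55 its level was 142.5, 156.9 and 164.9 CPM (lowest, median and highest) in IVP-Normal, 136.3, 143.4 and 166.1 CPM in AI, and 139.0, 150.5 and 161.7 CPM in IVP-LOS heifers. On D105 the corresponding values were 119.8, 150.1 and 171.9 CPM, 127.2, 158.7 and 178.4 CPM, and 122.4, 132.1 and 217.2 CPM. The ranges of the groups overlapped on both days and were wider on D105, and the highest value of all was that of heifer 637.

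NFKB1 encodes p105, the precursor of the p50 subunit. Its 46 values lay between 122.4 and 203.4 CPM, with group means from 148.3 ± 16.2 CPM (SD, n = 8, AI on D105) to 168 ± 15.4 CPM (SD, n = 6, IVP-Normal on D55). Only the 6 IVP-Normal values of D105 lay close together, from 146.8 to 158.1 CPM.

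NFKB2 and RELB form the dimer of the slower branch. NFKB2 ranged from 110.1 CPM (AI heifer 590 on D105) to 220 CPM (IVP-Normal heifer 633 on D105). Its group means were highest in IVP-Normal, with 193.4 ± 18.01 CPM (SD, n = 6) on D55 and 186 ± 18.4 CPM on D105, and lowest in AI, with 163 ± 17.9 CPM (SD, n = 8) and 150.4 ± 31.7 CPM. RELB ranged from 36.6 to 60.0 CPM, and its group means were 54.2 ± 3.13 and 54.3 ± 5.07 CPM (SD, n = 6) in IVP-Normal against 48.4 ± 5.07 and 48.0 ± 9.89 CPM (SD, n = 8) in AI on D55 and D105. The AI and IVP-Normal ranges overlapped for both genes on both days.

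REL encodes c-Rel, a subunit best known for its role in lymphocyte activation. It had the fewest reads of the 10 genes, from 151 to 753 per library, and spanned 6.24 to 33.9 CPM. The lowest, median and highest values on D55 were 10.9, 17.3 and 29.7 CPM in AI, 6.24, 22.2 and 32.2 CPM in IVP-Normal and 10.2, 20.2 and 25.4 CPM in IVP-LOS heifers. On D105 they were 13.1, 21.8 and 25.7 CPM, 10.4, 17.1 and 20.6 CPM, and 9.38, 20.4 and 33.9 CPM. Every pair of groups overlapped.

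NFKBIA encodes IkappaB-alpha, the inhibitor that is degraded first on stimulation and made anew by NF-kappaB itself. On D55 it was at 106.8, 157.9 and 188.7 CPM (lowest, median and highest) in AI, 115.1, 131.9 and 191.2 CPM in IVP-Normal and 93.1, 116.7 and 148.5 CPM in IVP-LOS heifers. On D105 it was at 120.3, 197.5 and 261.9 CPM, 145.3, 222.6 and 443.0 CPM, and 101.8, 139.6 and 324.0 CPM. The D105 median was above the D55 median in each group while the ranges overlapped, and the D105 values of IVP-LOS fell apart into 5 heifers at or below 139.6 CPM and 4 (heifers 512, 604, 637 and 664) at or above 236.7 CPM. Ordered by mean, the groups ran from IVP-LOS on D55 (123.7 ± 18.9 CPM, SD, n = 9) through IVP-Normal on D55 (145 ± 31.9 CPM) and AI on D55 (152 ± 25.7 CPM) to IVP-LOS (192 ± 91.4 CPM), AI (198 ± 49.9 CPM) and IVP-Normal (255 ± 117.2 CPM) on D105. Each gap between neighbours in this order was smaller than the larger of their SDs.

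BCL3 is an atypical IkappaB protein of the nucleus, which binds p50 and p52 homodimers and can activate as well as repress. Its D55 values lay within 52.1 to 112.5 CPM. On D105 the lowest, median and highest values were 41.4, 107.2 and 150.8 CPM in AI and 52.3, 76.2 and 245.3 CPM in IVP-LOS heifers. The IVP-Normal values lay between 60.9 and 129.9 CPM (mean 101.6 ± 24.4 CPM, SD, n = 6). Heifer 637 stood alone at 245.3 CPM, with the next IVP-LOS heifer at 91.6 CPM.

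TNFAIP3 encodes A20, which edits ubiquitin chains upstream of the kinase complex and so shuts the signal off. It ranged from 30.6 to 87.6 CPM on D55 and from 28.2 to 154.9 CPM on D105. On D105 the lowest, median and highest values were 36.9, 60.9 and 154.9 CPM in AI, 28.2, 84.3 and 138.8 CPM in IVP-Normal and 33.6, 47.7 and 145.0 CPM in IVP-LOS heifers. In IVP-LOS, 7 heifers lay at or below 53.1 CPM and heifers 512 and 637 at 139.7 and 145.0 CPM.

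NFKBIB and NFKBIE encode the inhibitors IkappaB-beta and IkappaB-epsilon, which are degraded more slowly than IkappaB-alpha. NFKBIB ranged from 24.8 to 41.6 CPM and NFKBIE from 25.9 to 46.4 CPM over the 46 libraries. NFKBIE was at 36.9 ± 4.87, 39.7 ± 3.87 and 36.7 ± 4.02 CPM in AI (SD, n = 8), IVP-Normal (n = 6) and IVP-LOS (n = 9) on D55, and at 32.8 ± 4.36, 35.8 ± 4.35 and 34.8 ± 4.71 CPM on D105. All 3 means were lower on D105, each by less than the larger of the SDs of the 2 days.

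**Figure D1:**
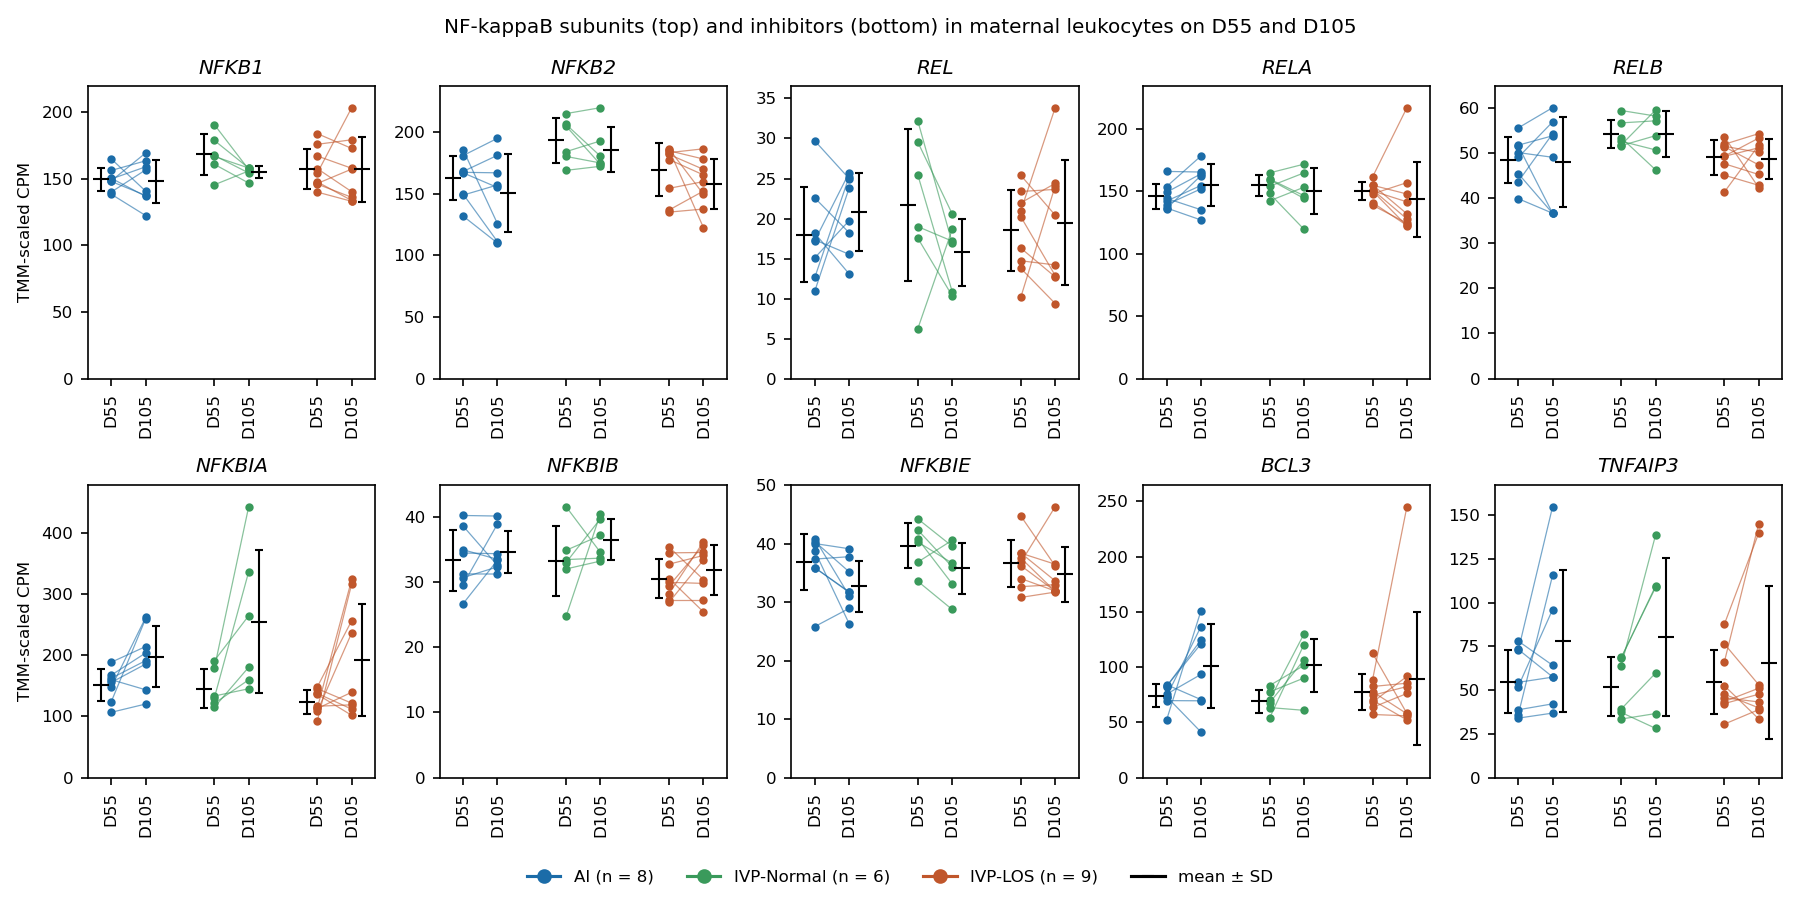
TMM-scaled CPM (y axis, from 0) of each of the 10 genes on D55 and D105 in AI (n = 8), IVP-Normal (n = 6) and IVP-LOS heifers (n = 9). Points are libraries, thin lines join the 2 libraries of a heifer and black bars give mean ± SD; the spread of NFKBIA, BCL3 and TNFAIP3 is wider on D105, up to 443.0 CPM for NFKBIA and 245.3 CPM for BCL3.

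The first question was whether these genes changed between D55 and D105 within a group. NFKBIA was higher on D105 in 7 of 8 AI, 6 of 6 IVP-Normal and 6 of 9 IVP-LOS heifers, and in these groups its fitted log2 fold change was 0.39 (SE 0.15), 0.81 (SE 0.26) and 0.65 (SE 0.23). None of these passed the test across all genes (edgeR quasi-likelihood FDR = 0.122, 0.149 and 0.225). The IVP-LOS value was 0.37 (SE 0.24, FDR = 0.731) without heifers 604 and 664 and 0.51 (SE 0.23, FDR = 0.379) without heifer 637. The count of genes called at an FDR of at most 0.05 was 0 of 10 in each group, where 9.95% of all tested genes were called in AI, 2.45% in IVP-Normal and 0.251% in IVP-LOS. At an unadjusted p under 0.05, NFKBIA and BCL3 stood out in AI and in IVP-Normal and NFKBIA alone in IVP-LOS, that is 2, 2 and 1 of the 10 genes where 22.6%, 13.3% and 12.6% of all genes reached this level. Without heifers 604 and 664, NFKBIA no longer reached it in IVP-LOS. With the heifer as a block the counts were 1 (NFKBIA), 3 (NFKBIA, BCL3 and TNFAIP3) and 0, where 31.3%, 21.3% and 18.2% of all genes reached it.

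With the heifer as a block, which compares the 2 libraries of each animal, NFKBIA was called in IVP-Normal (log2 fold change 0.72, edgeR FDR = 0.0269), where 5.5% of genes were called. BCL3 was called in IVP-Normal by edgeR's likelihood ratio test (log2 fold change 0.55, FDR = 0.045) and by DESeq2 (0.57, adjusted p = 0.035), and not by the quasi-likelihood test (FDR = 0.113). The shares of all genes called by the likelihood ratio test and DESeq2 are not given here, so these BCL3 calls cannot be set against them. None of the 10 genes was called in AI or IVP-LOS by any of these tests, and the block called 17.1% and 1.07% of all genes there. The estimate of BCL3 in IVP-LOS was 0.23 (SE 0.26, FDR = 0.774) and became -0.10 (SE 0.15, FDR = 0.845) without heifer 637. IVP-Normal is the group in which both days belong to the same library set.

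Heifers differed widely in the size of the change of NFKBIA. The ratio of D105 to D55 ran from 0.748 in heifer 616 to 3.40 in heifer 604, both IVP-LOS. Heifer 604 rose from 93.1 to 316.9 CPM, heifer 637 from 114.1 to 324.0 CPM and heifer 664 from 108.6 to 236.7 CPM. IVP-LOS heifers 616, 663 and 602 fell, from 136.0 to 101.8, from 137.7 to 111.9 and from 145.4 to 121.7 CPM, and the only AI heifer that fell was 648, from 160.1 to 143.6 CPM. The largest ratios among the other groups were 2.58 and 2.48 in IVP-Normal heifers 633 and 628 and 2.09 in AI heifer 606.

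The change in IVP-Normal and in IVP-LOS was set against that in AI by an interaction term, and both tests share the AI heifers. At an FDR of at most 0.05, 0 of 10 genes and 0% of 16487 genes were called in either (edgeR quasi-likelihood test), and at an unadjusted p under 0.05 it was again 0 of 10, where 2.83% of genes reached this level for IVP-Normal and 4.9% for IVP-LOS. The largest estimate was that of REL, whose change was lower in IVP-Normal than in AI by a log2 difference of -0.67 (SE 0.38, FDR = 1). REL fell in 5 of 6 IVP-Normal heifers and rose in heifer 560, from 6.24 to 18.6 CPM, and it was higher on D105 in 4 of 8 AI heifers.

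Since the estimates of NFKBIA had the same sign in the 3 groups, day was also fitted over all 23 heifers with treatment group as a term, a comparison added after the values within groups had been seen. This fit had no heifer block and so did not use the pairing of the libraries of each animal. In it NFKBIA was 1.51-fold higher on D105 (log2 fold change 0.59, SE 0.13, edgeR FDR = 0.000576), with 19 of 23 heifers in this direction. BCL3 was 1.30-fold higher (log2 fold change 0.38, SE 0.14, edgeR FDR = 0.0388), with 15 of 23 heifers higher, but it was not called with the heifer as a block. These were 2 of the 10 genes called higher, where the share of all 16487 genes was 20.7% (11.9% up and 8.73% down). The median log2 fold change was -0.01 over the 10 genes and -0.02 over all genes.

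**Figure D2:**
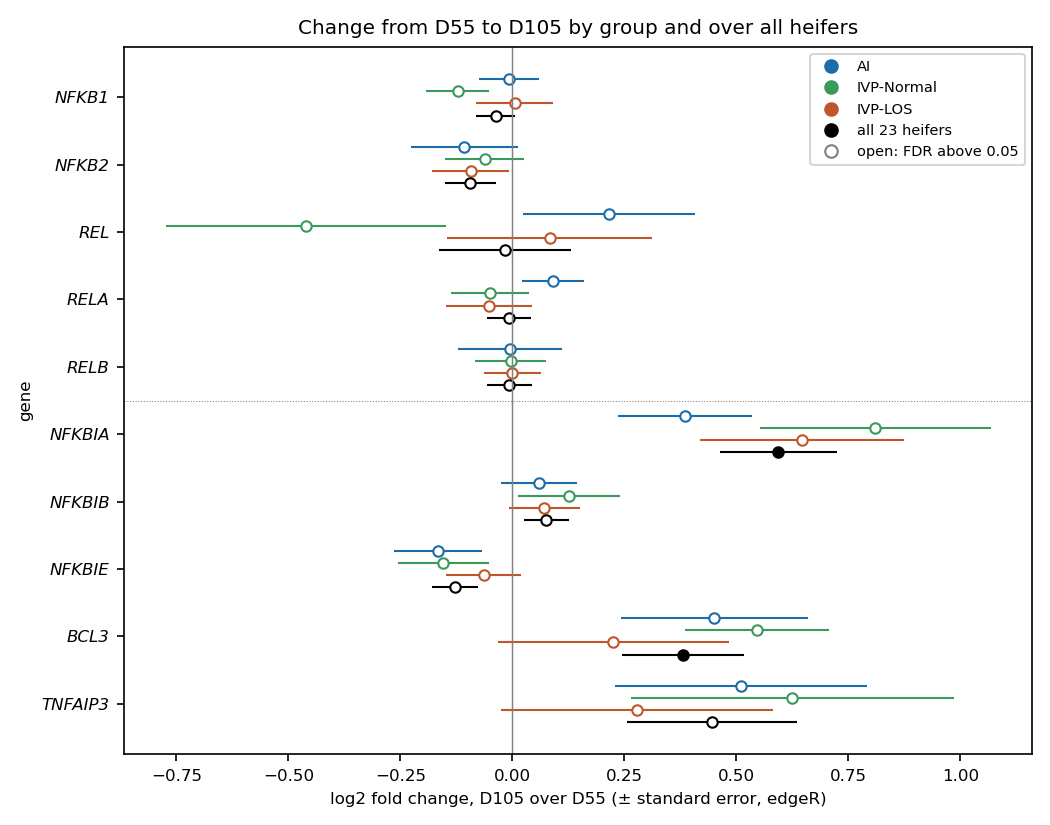
Log2 fold change of D105 over D55 (x axis, with standard error, edgeR quasi-likelihood fit without a heifer block) of the 10 genes in AI, IVP-Normal and IVP-LOS heifers and over all 23 heifers. Filled points have an FDR of at most 0.05: NFKBIA (0.59) and BCL3 (0.38) over all 23 heifers, where BCL3 is not called with the heifer as a block. All estimates within the groups are open.

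NFKBIA remained called without heifer 637 (log2 fold change 0.54, edgeR FDR = 0.00185), without 604 and 664 (0.50, FDR = 0.00491) and with the heifer as a block (0.51, FDR = 0.00199). BCL3 was not called without heifer 637 (0.27, FDR = 0.0911) nor with the heifer as a block (0.28, FDR = 0.0908). NFKBIE, with a log2 fold change of -0.13 (SE 0.05, FDR = 0.0771) and 6 of 23 heifers higher on D105, was called lower with the block (-0.13, FDR = 0.0182) and without heifer 637 (-0.15, FDR = 0.0252). TNFAIP3, with 0.45 (SE 0.19, FDR = 0.0883) and 16 of 23 heifers higher, was called higher with the block (0.31, FDR = 0.0464). With the block, 31.7% of all genes were called. When the library set was added as a term to the blocked fit, no gene of the 10 was called, where 8.54% of all genes were, and the log2 fold change of NFKBIA was 0.72 (SE 0.23, FDR = 0.0542). In that fit the day term rests on the IVP-Normal heifers alone, since day follows set in AI and IVP-LOS. It therefore cannot show whether the change over all 23 heifers holds apart from the set.

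None of the 5 subunits was called in the fit over all heifers, and their log2 fold changes lay between -0.09 (NFKB2, SE 0.06, FDR = 0.264) and -0.01 (RELB, SE 0.05, FDR = 0.944). NFKBIB was at 0.08 (SE 0.05, FDR = 0.307). The subunits showed no common direction among heifers, with 8 to 11 of 23 heifers higher on D105.

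**Figure D3:**
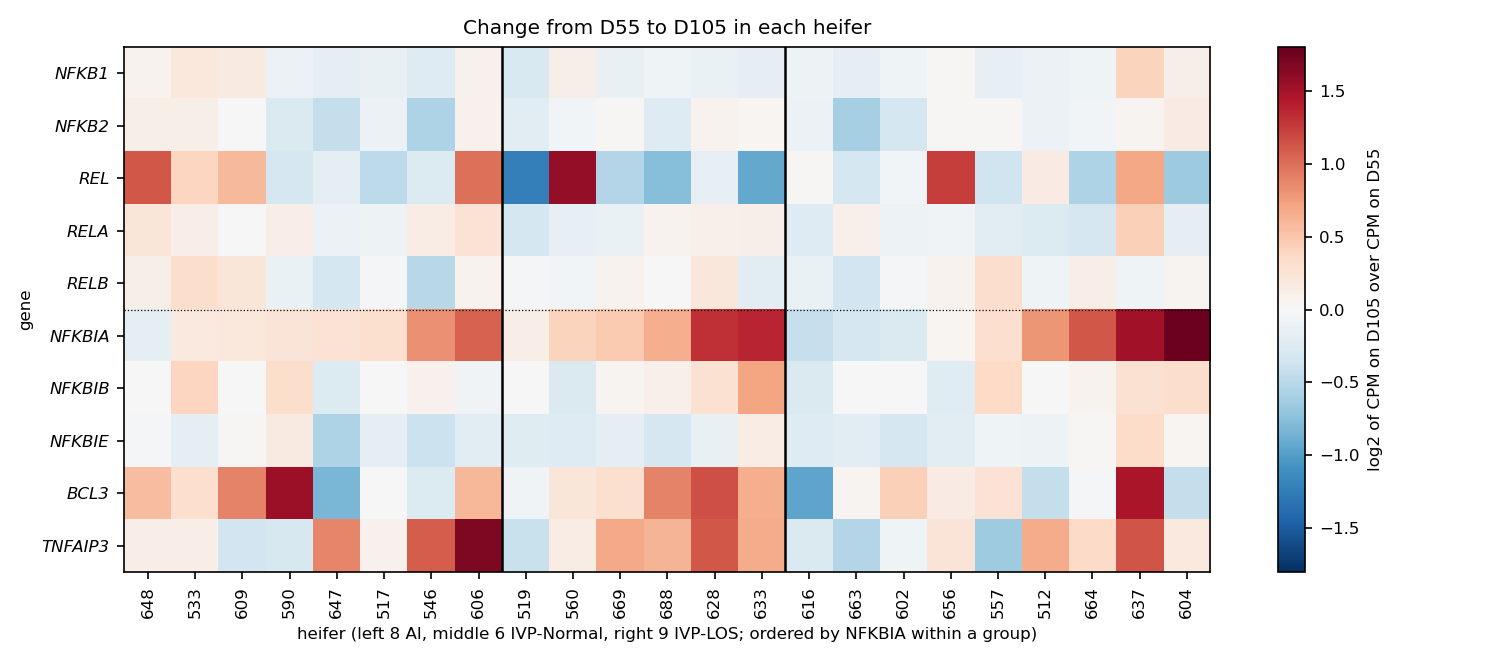
Log2 ratio of D105 to D55 CPM (colour, red for higher on D105) of each gene (rows, subunits above the dotted line) in each of 23 heifers (columns, ordered by NFKBIA within AI, IVP-Normal and IVP-LOS). The row of NFKBIA is red in 19 heifers and that of NFKBIE in 6, while REL changes sign from heifer to heifer.

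Markers of granulocytes moved with day as well. In the fit over all heifers 10 of 10 tested neutrophil markers were called higher on D105, with a median log2 fold change of 2.01. So were 2 of 3 tested eosinophil, 2 of 6 monocyte, 1 of 8 T cell and 1 of 5 natural killer cell markers. Of the B cell markers 1 of 7 was called lower. The median summed neutrophil level went from 1011 to 2474 CPM in AI, from 829.7 to 1755 CPM in IVP-Normal and from 1039 to 1119 CPM in IVP-LOS heifers. In these unsorted cells, more cells of a type and more RNA per cell cannot be told apart. Within groups and days, the levels of RELA and BCL3 went with the summed neutrophil level over the 46 libraries (Pearson r = 0.75 and 0.71 of log2 deviations from the group-by-day means, 0.59 and 0.54 without heifer 637), while NFKBIA had r = 0.24 with it, and 0.05 without heifer 637. With the summed level of 3 eosinophil markers NFKBIA had r = 0.57, with 0.24 on D55, 0.67 on D105 and 0.51 without heifer 637, and with 5 platelet markers r = 0.38, with -0.03 on D55 and 0.56 on D105. With 6 red cell markers NFKBIA had r = 0.38, with 0.07 on D55 and 0.51 on D105. The eosinophil granule genes EPX and PRG2 were listed as markers but absent from the count table. The median summed eosinophil level went from 45.1 to 82.6 CPM in AI, from 48.9 to 101.1 CPM in IVP-Normal and from 52.3 to 69.9 CPM in IVP-LOS heifers. These are descriptions of libraries that share cells and depth, and the part of cell composition in the changes was not tested.

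Of 70 other genes of the pathway, from receptors to targets, 68 were tested in the fit over all heifers, where 22 were called higher on D105 and 1 lower. The share of 22 in 68 is set beside the 11.9% of all genes. The pathway list was chosen with earlier results of these data known, so such shares, here and below, are descriptions and not tests. Higher were 2 of 2 atypical inhibitors, 3 of 8 receptors, 5 of 25 kinases and adaptors, 3 of 13 regulators of ubiquitin chains and 9 of 20 tested targets. The smallest FDR values belonged to IL1B, the gene of the cytokine IL-1 beta, at 7.78-fold (edgeR FDR = 3.06e-07), GADD45B, a stress-response target, at 1.38-fold (FDR = 2.89e-06), and NFKBIZ, an atypical nuclear IkappaB, at 2.02-fold (FDR = 3.47e-06). The gene called lower was BIRC3, a ubiquitin ligase of TNF receptor complexes, at 0.858-fold (FDR = 0.0475). With the heifer as a block 28 of 68 were called higher and 7 lower, where 14.6% of all genes were called higher and 17.1% lower.

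Within AI, 13 of 67 tested pathway genes were called higher and none lower, led by the chemokine gene CXCL8 (4.82-fold, edgeR FDR = 0.000206), TNFAIP6, which encodes a secreted protein induced by TNF (8.96-fold, FDR = 0.000424) and IL1B (12.5-fold, FDR = 0.000472), where 7.21% of all genes were called higher. In IVP-Normal 5 of 67 were called higher and none lower, led by IL1B (10.7-fold, FDR = 0.00647), GADD45B (1.60-fold, FDR = 0.0114) and SOD2, the mitochondrial superoxide dismutase (3.92-fold, FDR = 0.0168), where 2.27% of all genes were called higher, and with the heifer as a block 12 of 67, where 4.49% were. In IVP-LOS 0 of 67 were called, where 0.251% of all genes were, and with the heifer as a block 1 (IL1B, 4.601-fold, FDR = 0.0326), where 0.778% of all genes were called higher. The median log2 fold change of the pathway genes was 0.04 in AI, 0.09 in IVP-Normal and 0.08 in IVP-LOS, against -0.02, -0.03 and 0.01 over all tested genes.

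The treatment groups were then compared on each day, in 3 comparisons a day that share their groups. None of the 10 genes was called in any of the 6 (edgeR quasi-likelihood test, edgeR's likelihood ratio test and DESeq2), where 0% of all genes were called by the quasi-likelihood test. At an unadjusted p under 0.05 the count was 3 of 10 for IVP-Normal against AI on D55, where 9.92% of all genes reached this level. These were NFKB2 (log2 fold change 0.24, SE 0.08, FDR = 0.493), NFKB1 (0.16, SE 0.06, FDR = 0.493) and RELB (0.16, SE 0.07, FDR = 0.503), all with the higher mean in IVP-Normal. Markers differed in the same comparison, with summed B cell levels of 3428, 3762 and 4985 CPM (lowest, median and highest) in IVP-Normal against 2345, 2920 and 3896 CPM in AI, and T cell medians of 1132 against 1301 CPM, and their part in these values was not tested.

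Elsewhere at most 1 gene of the 10 reached that level in a comparison. It was NFKBIA for IVP-LOS against AI on D55 (log2 fold change -0.29, SE 0.11, FDR = 0.636), with 116.7 CPM as the IVP-LOS and 157.9 CPM as the AI median, where 7.74% of all genes reached it. It was RELB for IVP-LOS against IVP-Normal on D55 (-0.13, SE 0.06, FDR = 0.839), where 5.19% did. On D105 it was NFKB2 both for IVP-Normal against AI (0.31, SE 0.13, FDR = 0.514), where 9.57% did, and for IVP-LOS against IVP-Normal (-0.22, SE 0.09, FDR = 0.999), where 3.24% did. On D105 these 2 comparisons of IVP-Normal follow the library sets as well, and group and set cannot be told apart in them. The comparison of IVP-LOS with AI on D105 lies within the set BACKUP, and 0 of 10 genes reached an unadjusted p under 0.05 in it, where 5.76% of all genes did. None of the other pathway genes, of which 66 to 68 were tested in each, was called in the 6 comparisons (edgeR quasi-likelihood test).

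The dams of the 2 largest IVP-LOS fetuses, heifers 604 and 664, were compared with the other 21 heifers. On D55 NFKBIA was at 93.1 CPM in heifer 604 and 108.6 CPM in heifer 664, against 106.8, 137.7 and 191.2 CPM (lowest, median and highest) in the others, so that 604 lay below and 664 within their range. The log2 fold change was -0.50 (SE 0.18, edgeR FDR = 0.947). TNFAIP3 was at 42.3 and 30.6 CPM against 33.5, 52.6 and 87.6 CPM, with a log2 fold change of -0.61 (SE 0.32, FDR = 0.947). Of the 10 genes 0 were called on D55, as was 0.0179% of all genes, and 2 (NFKBIA and NFKBIE) had an unadjusted p under 0.05, where 4.72% of all genes did. Summed monocyte markers on D55 were at 271.6 CPM in 604 and 310.6 CPM in 664 (others 258.6, 501.8 and 1206 CPM). Neutrophil markers were at 655.9 and 463.1 CPM (others 380.2, 990.9 and 1507 CPM). Median log2 fold changes were -0.94 and -0.97 for these markers, and 0.11 and 0.21 for T and B cell markers. None of these markers was called, and the part of cell composition was not tested.

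On D105 both heifers had left the low end for NFKBIA and stood at 316.9 and 236.7 CPM, against 101.8, 185.7 and 443.0 CPM in the others, within their range (log2 fold change 0.44, SE 0.39, FDR = 0.416). REL was at 12.9 CPM in 604 and 9.38 CPM in 664, against 10.4, 19.7 and 33.9 CPM in the others, so that 664 was the lowest of all 23 and 604 within the range. Its log2 fold change was -0.82 (SE 0.33, edgeR FDR = 0.074). BCL3 was at 57.8 and 55.9 CPM (others 41.4 to 245.3 CPM, log2 fold change -0.82, SE 0.43, FDR = 0.168) and RELA at 124.6 and 122.4 CPM (others 119.8 to 217.2 CPM, log2 fold change -0.30, SE 0.15, FDR = 0.147). Both heifers were near the low end of the others for these 2 genes.

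None of the 10 genes was called on D105, while 21.1% of all 16841 tested genes were (edgeR quasi-likelihood test). REL alone had an unadjusted p under 0.05, where 37.4% of all genes did. Among libraries of the set BACKUP alone, REL was called lower (log2 fold change -0.93, SE 0.31, FDR = 0.0314), where 29.9% of all genes were called and 13.2% were called lower. The log2 fold change of REL was -1.06 without heifer 604 and -0.62 without heifer 664, where the lone library left is assumed to vary as the other 21 heifers do. NFKBIB had a log2 fold change of -0.01 (SE 0.13, FDR = 0.959).

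**Figure D4:**
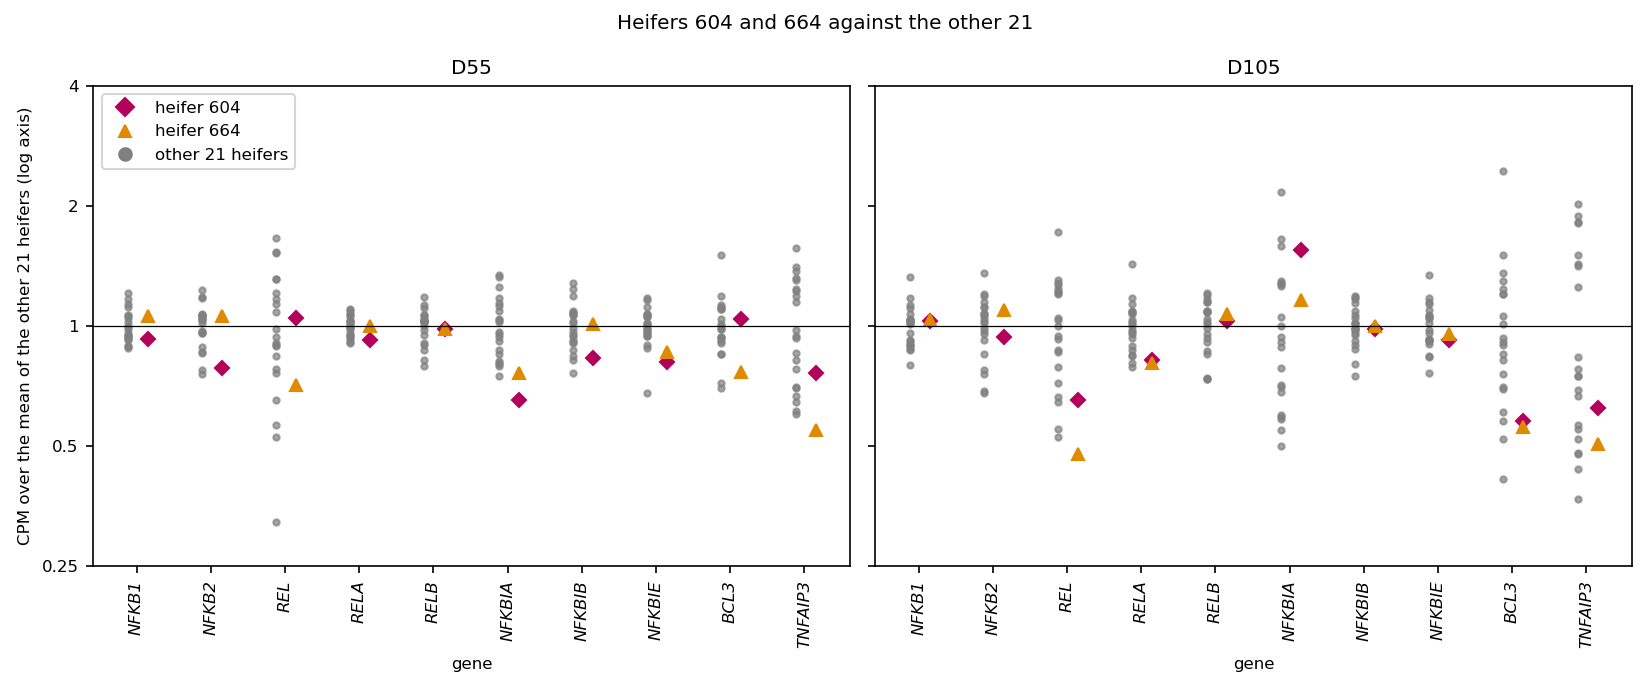
CPM of each gene in heifers 604 (diamonds) and 664 (triangles) and in the other 21 heifers (grey points), divided by the mean of the other 21, on D55 and D105 (log axis). Both heifers are low for NFKBIA on D55 and above the mean on D105, and both are below the mean for REL, RELA, BCL3 and TNFAIP3 on D105, with 664 at the lowest REL value, 9.38 CPM.

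Other measures moved with this pair on D105. Their reads on no annotated gene made up 32.4% (604) and 30.4% (664) of all reads, against 20.2% to 25.9% in the others, and their summed levels were 311.6 and 383.6 CPM for neutrophil markers (others 676.8 to 12860 CPM) and 126.7 and 104.1 CPM for monocyte markers (others 222.5 to 2140 CPM). Of the tested markers 7 of 10 for neutrophils, 5 of 6 for monocytes, 1 of 3 for eosinophils and 1 of 8 for T cells were called lower. Called higher were 3 of 5 for platelets, 3 of 7 for B cells and 1 of 3 for red cells. The summed red cell level was 590.9 CPM in 604 and 136.3 CPM in 664, against 11.3 to 152.8 CPM in the others. The summed platelet level was 2547 CPM in 604 and 324.9 CPM in 664, against 123.8 to 719.8 CPM in the others. Of 68 tested pathway genes 3 were called higher and 11 lower, beside 11.6% and 9.48% of all genes. The 3 with the smallest FDR among the lower ones were ITCH, a ubiquitin ligase (0.268-fold, edgeR FDR = 0.00467), the receptor gene IL1R1 (0.152-fold, FDR = 0.00491) and the lymphotoxin beta receptor gene LTBR (0.248-fold, FDR = 0.00801). Among the higher ones were TRAF3, an adaptor that restrains the slower branch (1.35-fold, FDR = 0.00511), and the survival gene BCL2L1 (2.47-fold, FDR = 0.00664). The part of cell composition and RNA quality in these values was not tested.

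Each heifer was sampled on 2 days, so the stability of a level within an animal could be tested. The heifer term was called for TNFAIP3 (edgeR quasi-likelihood FDR = 0.00164) and NFKB2 (FDR = 0.0485), 2 of 10 genes where 44% of all genes were called. For TNFAIP3 the SD of heifer means was 0.58 on the log2 scale and the SD within a heifer 0.43, after group-by-day means were removed. For REL (0.37 and 0.50), NFKBIA (0.33 and 0.44) and NFKBIB (0.12 and 0.17) the SD within a heifer was the larger one, and the heifer term was not called (FDR = 0.421, 0.316 and 0.616). The same held for RELB (0.14 and 0.15, FDR = 0.158) and BCL3 (0.33 and 0.46, FDR = 0.26). The SD of heifer means also holds part of the variation within a heifer, so the 2 SDs are not separate components. NFKB2 was not called with upper-quartile scaling, without an expression filter, without 604 and 664 or without 637, and NFKB1 was called in the last of these.

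The spread among heifers differed between days. The coefficient of variation (CV, the SD as a percentage of the mean) over 23 heifers went from 5.90% on D55 to 15.3% on D105 for RELA, from 17.4% to 45.8% for BCL3, from 19.5% to 41.7% for NFKBIA and from 31.6% to 56.4% for TNFAIP3. It was higher on D105 for 8 of 10 genes, and for 79.4% of 9601 genes with a mean of at least 10 CPM, whose median CV went from 13.1% to 16.3%. Without heifer 637 the CV was higher on D105 for 7 of 10 genes and 76.7% of all genes. The CV of BCL3 on D105 was then 34.2% and that of RELA 12.1%. That of NFKBIE was then lower on D105, with 11.74% on D55 and 10.98% on D105. Without heifers 604, 637 and 664 the CV was higher on D105 for 8 of 10 genes and 64.1% of all genes. On D105 it was then 43.5% for NFKBIA and 32.5% for BCL3. Within IVP-Normal, where both days belong to the set New, the CV was higher on D105 for 7 of 10 genes and 61% of all genes. It went from 5.36% to 12.2% for RELA and from 22.0% to 45.97% for NFKBIA. It fell for NFKB1, from 9.17% to 2.76%, for REL, from 43.75% to 26.6%, and for NFKBIB, from 16.2% to 8.61%.

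Over all 23 heifers, NFKBIB and REL were the 2 genes with a lower CV on D105. NFKBIB was used by the study, with ECD and VPS35L, as a reference gene for qRT-PCR. The study chose it for a CV within a set limit and no called difference in these same D105 libraries, and for an available probe. Its D105 spread is therefore not independent evidence. Its CV was 11.2% on D105, where 22.1% of genes had a lower one, and 13.4% on D55, where 51.5% of genes had a lower one. On D55 the CV was 7.18% for ECD and 7.86% for VPS35L, and on D105 it was 6.39% and 8.67%. NFKBIB thus had the highest CV of these reference genes on both days. Its D105 value here lay above the study's limit, and those of ECD and VPS35L lay below it. The study does not state the scaling behind its own CV. The ratio of NFKBIB to the geometric mean of ECD and VPS35L was 0.947 ± 0.121 (SD, n = 8), 0.897 ± 0.133 (n = 6) and 0.826 ± 0.0857 (n = 9) in AI, IVP-Normal and IVP-LOS on D55, and 0.955 ± 0.122, 1.06 ± 0.183 and 0.868 ± 0.112 on D105. These ranges overlapped between all groups.

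Correlations among the 10 genes describe how they varied together after the group-by-day means were removed. Over the 46 libraries, which are pairs from 23 heifers, Pearson r had a median of 0.24 over the 45 pairs of genes, with 7 pairs above 0.5 and 7 below 0. NFKBIA and TNFAIP3, both brakes that NF-kappaB itself induces, had r = 0.72 (Spearman rho = 0.72), with 0.66 on D55 and 0.74 on D105. NFKB2 and RELB had r = 0.69 (rho = 0.62), with 0.67 on D55 and 0.70 on D105. The highest value, RELA with BCL3 at 0.79 (rho = 0.70), was 0.29 on D55 and 0.87 on D105, and 0.68 without heifer 637. The lowest was REL with NFKBIB at -0.54 (rho = -0.50), with -0.75 on D55 and -0.24 on D105.

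**Figure D5:**
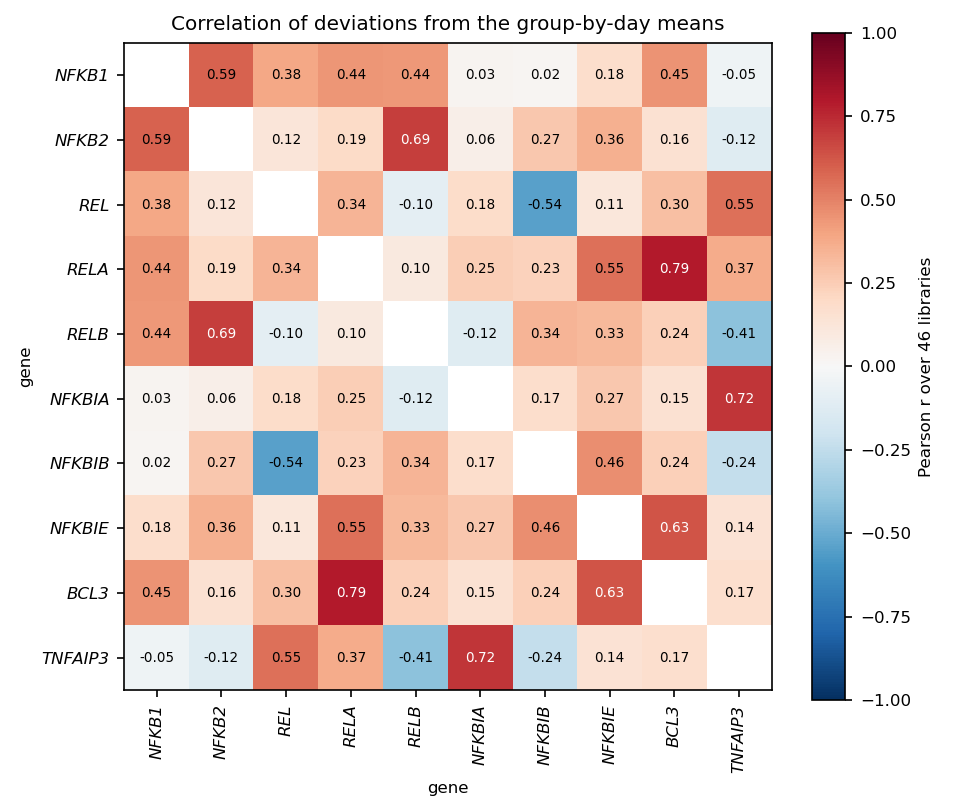
Pearson r (colour and printed value) between the 10 genes over 46 libraries, from log2 CPM deviations from the group-by-day means. The highest values are RELA with BCL3 (0.79) and NFKBIA with TNFAIP3 (0.72), and the lowest is REL with NFKBIB (-0.54).

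Among 9600 other genes with a mean of at least 10 CPM, those most like each gene by the same measure (Pearson r, 46 libraries) were as follows. For NFKBIA they were ZFP36 (r = 0.77), CDKN1A (0.75) and UBALD2 (0.74), and for TNFAIP3 they were IPCEF1 (0.82), NFKBIZ (0.79) and PTGER4 (0.78). For RELA they were LRP10 (0.94), NDEL1 (0.90) and MYD88 (0.90), and for REL they were ASXL2 (0.93), PRDM2 (0.93) and GPR107 (0.90). For BCL3 they were MIDN (0.87), SBNO2 (0.83) and KHNYN (0.82).

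Among the genes described here, the r of the nearest gene was lowest for NFKBIE, followed by NFKB2 and RELB of the slower branch. NFKB2 was nearest to CLEC16A (0.71), MYO1C (0.71) and TRAF7 (0.70), and RELB to TCTN1 (0.74), the receptor gene CD40 (0.72) and SLC43A2 (0.70). NFKB1 was nearest to PTPRJ (0.84), VAV1 (0.84) and NADK (0.83). NFKBIB was nearest to CSNK2B (0.78), RBM42 (0.75) and ORAI1 (0.72), and NFKBIE to ARID5A (0.69), EGLN2 (0.68) and MIDN (0.65). The median r of each gene with all others lay between -0.05 and 0.05.

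Summed cell type markers gave a further description of the same deviations. NFKB1 and NFKB2 went down where the 8 T cell markers went up (r = -0.75 and -0.62 over 46 libraries), with -0.71 and -0.66 on D55 and -0.79 and -0.59 on D105. RELB and NFKB2 went with the 7 B cell markers (r = 0.58 and 0.54), and TNFAIP3 against them (r = -0.65) and with the 6 monocyte markers (r = 0.65). The summed levels are themselves shares of the same libraries.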

How the data were processed

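The authors trimmed the reads (DynamicTrim, LengthSort), aligned them to the bovine genome ARS-UCD1.2 with HISAT2 2.1.0 and counted them per RefSeq gene with HTSeq-count in union mode. These raw counts, 1 whole number for each gene and library, are what the authors deposited. The setting for strand is not given in the sources used here. The 5 summary lines (36.5% to 48.6% of all counts in a library) were left out of totals and tests. The second table, on Ensembl genes without names, was not used here.

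Counts were filtered (filterByExpr, minimum count 10), scaled by TMM and tested in R 4.3.3 with edgeR 4.0.16 (quasi-likelihood F-test, Benjamini-Hochberg over all genes, called at an FDR of at most 0.05), with only the compared groups in each fit. DESeq2 1.42.0 was an alternative. The SE is the absolute log2 fold change over the square root of F. Fits were also run on simulated data. In the day and group fits its libraries were independent, and the changes put in were larger than those of the 10 genes. That check does not cover the pairing of libraries or the power for small changes. Correlations used log2(CPM + 0.5).

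Same-numbered libraries came from the same heifer, and their deviations correlated (mean r = 0.53, lowest 0.30, 23 of 23 heifers above 0.1), so heifer was used as a block in an alternative. The 10 genes, the pathway list and the marker lists were chosen with earlier results of these data known. Named are all 10 genes, the 3 pathway genes with the smallest FDR called in each direction of a comparison, the 3 genes most like each member, and the reference genes ECD and VPS35L. The result of 1 gene that this rule names is not reported here. Gene names came from the count table, and no sequence was used.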

Additional observations from a re-analysis of the deposited data

Results flagged for a closer look

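In 6 of 60 sets of values, each the values of a gene in a group on a day, 1 heifer lay far from the others by Dixon's test, which marks about 1 set in 20 by chance. The heifer at the top of IVP-LOS on D105 was 637 for RELA (217.2 CPM, next 157.1 CPM), NFKBIE (46.4 CPM, next 36.5 CPM) and BCL3 (245.3 CPM, next 91.6 CPM). Its D105 library also had the highest summed neutrophil markers (12860 CPM), with 23325805 reads on genes and 21.2% of reads on no gene, the lowest such share of its group.

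AI heifer 590 was lowest on D55 for NFKBIE (25.9 CPM, next 35.9 CPM) and BCL3 (52.1 CPM, next 69.7 CPM). On D105 the same heifer had the highest BCL3 value of its group, 150.8 CPM. IVP-Normal heifer 669 was lowest on D105 for NFKB1 (146.8 CPM, next 154.4 CPM), in a group that otherwise spanned only 154.4 to 158.1 CPM.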

How the results depend on the processing

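The count of genes called among the 10 was recomputed with upper-quartile scaling, DESeq2 size factors, no expression filter, edgeR's likelihood ratio test, DESeq2, left-out heifers and, for days, a replicate block. For D105 against D55 in IVP-Normal it was 0 and became 1 with the likelihood ratio test (BCL3), 1 with DESeq2 (BCL3) and 1 with the replicate block (NFKBIA). For heifers 604 and 664 on D105 it was 0 and became 1 (REL) in the set BACKUP alone, and it was 0 to 0 when either was left out, on D55 too, in fits that leave an arm of 1 library and therefore say little. Over all 23 heifers it was 2 and became 0 with library set as a term and the replicate block. The day term of that last fit rests on the IVP-Normal heifers alone. Without heifer 637 the count was 2 (NFKBIA and NFKBIE). The share of all genes called is not given here for that fit, the likelihood ratio test or DESeq2. For the heifer effect it was 2 and became 1 (TNFAIP3) with upper-quartile scaling, 1 without a filter, 1 without heifers 604 and 664, and 2 without heifer 637 (NFKB1 and TNFAIP3). The cause was not tested. No called value changed sign. The comparison over all heifers and the settings without heifer 637 were chosen after seeing the data.

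With the replicate block the number of all genes called went from 1517 to 2603 in AI, from 374 to 838 in IVP-Normal, from 38 to 162 in IVP-LOS and from 3408 to 5229 over all heifers. Without heifer 637 the count for IVP-LOS went from 38 to 24, and for IVP-LOS against AI on D105 from 0 to 10, none of them among the 10 genes. The planned repeat on Ensembl counts was not run, since its identifiers are not paired with names. REL had as few as 151 reads in a library, the lowest count of the 10 genes.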
